A study of Rattus norvegicus with 6 samples.

Results

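The 9 genes described here mark T and B lymphocytes and were taken by symbol from the 33294 genes of the pituitary count tables. Of these, 6 mark T cells (Cd3d, Cd3e, Cd3g, Lck, Cd2 and Cd5) and 3 mark B cells (Cd79a, Cd79b and Ms4a1). All 9 were found, and all 9 were among the 17292 genes that passed the filter on low counts. RNA was sequenced from the pituitary glands of 6 male Sprague-Dawley rats aged 11 weeks, with 1 library per rat. In the nicotine group (n = 3), the dams carried an osmotic pump filled with nicotine tartrate in saline at 6 mg/kg per day. In the control group (n = 3), the pump held sterile saline alone. The pump was rated for 28 days and the dams gave birth 13 days after it was placed, so its rated life ran past birth and each offspring was exposed only through its dam. Which rats shared a dam is not given in the sources used here, and the p-values therefore measure the spread between these libraries. The labels of the libraries conflict with the read numbers listed in the supplement of the study. There, each library labelled nicotine has fewer reads than its table holds counts, and the totals of all 6 tables are in nearly the same proportion to the listed reads only when the groups are exchanged. Whether the read list or the assignment of the tables is in error cannot be told from these sources. The labels were kept, so nicotine and control stand throughout for the libraries labelled so, and every direction given here would be the opposite if the tables had been exchanged. Blood was drawn under anesthesia before the organs were collected and frozen. In such whole-gland RNA, fewer cells of a type and less RNA per cell cannot be told apart.

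Lymphocytes carry antigen receptors that have no signaling tails of their own. In T cells the receptor is coupled to the CD3 chains, which are phosphorylated by the kinase LCK, and in B cells the surface immunoglobulin is coupled to the CD79A and CD79B chains. The pituitary is an endocrine gland with few resident lymphocytes, and blood that remains in its vessels also contributes lymphocyte RNA. The gland was recognizable in the libraries by its hormone genes, as growth hormone (Gh1), proopiomelanocortin (Pomc), prolactin (Prl) and 4 further hormone genes summed to between 114000 and 176000 CPM (counts scaled to library size) in each library. All levels are CPM after TMM normalization and depend on transcript length, so levels are compared between libraries and not between genes.

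Depth ranged from 28318383 to 85977002 counts per library, and 1 count corresponded to between 0.0109 and 0.0369 CPM. The 8 members other than Lck had summed counts of 204, 452 and 234 in nicotine replicates 1, 2 and 3, and of 155, 367 and 586 in the control libraries in the same order. They made up between 0.000372% and 0.00158% of all counts. Control replicate 3 had the most of these counts although it was the second shallowest library. Intervals given for single libraries are exact 95% Poisson intervals, which cover counting error only.

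The nicotine and control groups were compared to ask whether lymphocyte transcripts in the gland differed after exposure through the dam. 8 of the 9 members had lower mean levels in the libraries labelled nicotine (49% of all genes tested had a log2 fold change below 0), with log2 fold changes from -1.37 to -0.71, and Lck had a log2 fold change of 0.03. Calls required both an adjusted p below 0.1 and a change of more than 1.5-fold, the thresholds in the methods of the study. 0 of the 9 members were called by edgeR, where 0% of all genes tested were called, and 0 were called by DESeq2, which called 0.339% of the genes it gave an adjusted p. At an unadjusted p under 0.05 in edgeR, 5 members were lower (Cd3d, Cd3g, Cd2, Cd5 and Cd79b), against 3.01% of all genes tested, and 0 were higher. In either direction 6.14% of all genes had such a p. Cd5 and Cd3e would not have passed the filter on low counts with the nicotine libraries alone. The difference of Cd5, here and in the count of members without overlap below, therefore lends no support to the other members. In DESeq2, 6 members were lower at an unadjusted p under 0.05, against 3.03% of the genes it gave an adjusted p. The median log2 fold change was -1.09 over the 9 members and 0.01 over all genes tested. The nicotine libraries lay below the control libraries without overlap for 4 members (Cd3g, Cd2, Cd5 and Cd79b), which held for 5.14% of all genes tested. For 0 members they lay above without overlap, which held for 6.12% of all genes tested. For each of these 4 the exact two-sided permutation test gave p = 0.1, the smallest value that 3 libraries against 3 allow.

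**Figure D1:**
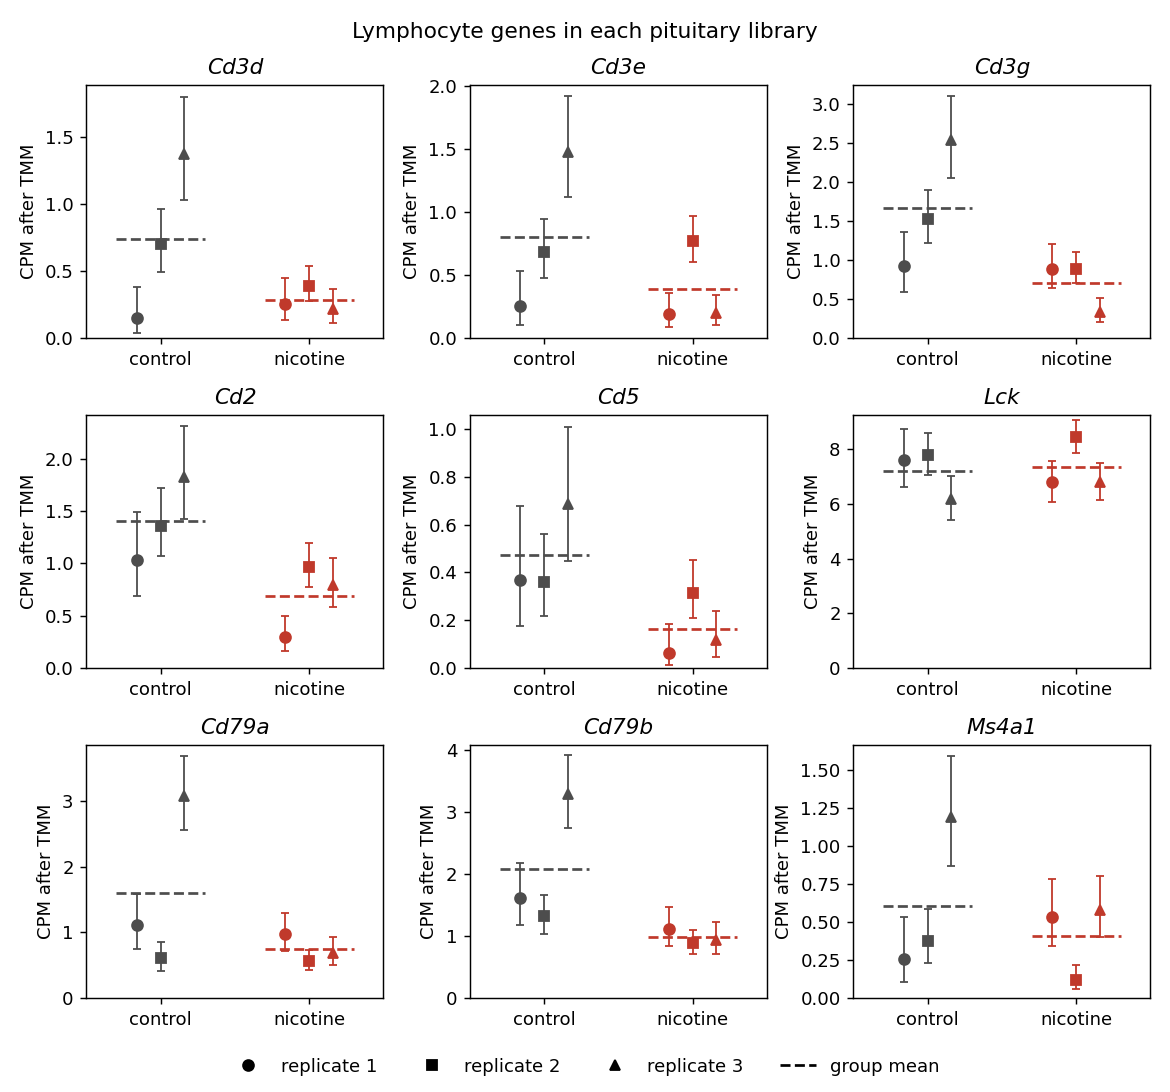
Level of each lymphocyte gene in each library, in CPM after TMM normalization, with control libraries in gray and nicotine libraries in red. Bars are exact 95% Poisson intervals of the count and dashed lines are group means. Control replicate 3 (gray triangle) was the highest library for each gene but Lck, for which it was the lowest.

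The size of the differences depended on control replicate 3. This library had the highest level of 8 of the 9 members, while 14.1% of all genes tested were highest in it. Without control replicate 3, the median log2 fold change of the members was -0.57 and 0 members had an unadjusted p under 0.05 in edgeR, against 2.53% of genes in the lower direction. The count of lower members at this p was 2 without nicotine replicate 1 (4.86% of all genes), 6 without nicotine replicate 2 (2.78%) and 1 without nicotine replicate 3 (4.40%). It was 4 without control replicate 1 (2.09% of all genes) and 4 without control replicate 2 (2.28%).

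**Figure D2:**
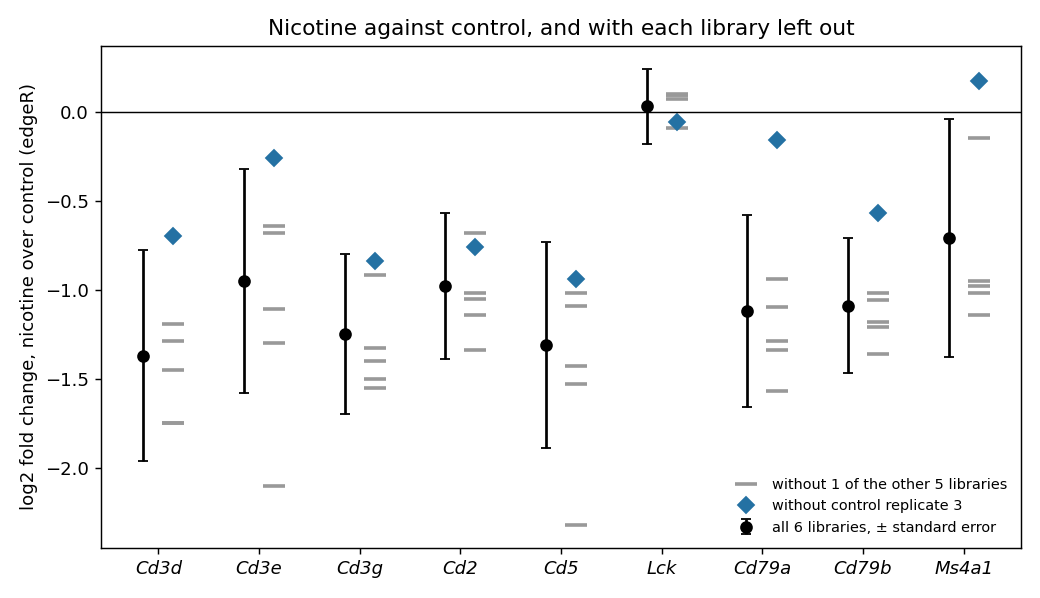
Log2 fold change of each lymphocyte gene, nicotine over control, from edgeR with all 6 libraries (black, with standard error) and with 1 library left out (gray bars, and blue diamonds for control replicate 3). Leaving out control replicate 3 moved Cd79a from -1.12 to -0.16, Cd3e from -0.95 to -0.26 and Ms4a1 from -0.71 to 0.17.

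The 3 CD3 genes encode the delta, epsilon and gamma chains that carry the T cell receptor signal. In the RefSeq annotation they are neighbors, with Cd3d between Cd3g and Cd3e. Cd3e was at 0.191, 0.771 and 0.198 CPM in nicotine replicates 1, 2 and 3, and at 0.258, 0.681 and 1.48 CPM in control replicates 1, 2 and 3. Nicotine replicate 2 was thus within the control range, and control replicate 1 was close to the other nicotine libraries. The log2 fold change of Cd3e was -0.95 (SE 0.63, edgeR adjusted p = 0.832), and it ranged from -2.10 without nicotine replicate 2 to -0.26 without control replicate 3. Cd3d was at 0.255, 0.391 and 0.215 CPM in the nicotine libraries and at 0.148, 0.70 and 1.37 CPM in the control libraries. Its lowest value was in a control library and rested on 4 counts, so the groups overlapped. Cd3d had a log2 fold change of -1.37 (SE 0.59, edgeR adjusted p = 0.806) and -0.70 without control replicate 3. Cd3g was at 0.891, 0.890 and 0.330 CPM in the nicotine libraries and at 0.923, 1.53 and 2.54 CPM in the control libraries. The groups did not overlap, but the 0.891 CPM of nicotine replicate 1 (interval 0.642 to 1.20) and the 0.923 CPM of control replicate 1 (interval 0.597 to 1.36) differed by less than their counting error. For Cd3g the log2 fold change was -1.25 (SE 0.45, edgeR adjusted p = 0.776).

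Cd2 encodes an adhesion receptor of T and NK cells. Its level was 0.297, 0.966 and 0.793 CPM in nicotine replicates 1, 2 and 3, and 1.03, 1.36 and 1.82 CPM in control replicates 1, 2 and 3. The lowest library was nicotine replicate 1, and every control library was above every nicotine library. Nicotine replicate 2 (interval 0.776 to 1.19) and control replicate 1 (interval 0.687 to 1.49) differed by less than their counting error. The group means were 0.685 ± 0.347 CPM after nicotine and 1.41 ± 0.396 CPM in controls (SD, n = 3 each), with a log2 fold change of -0.98 (SE 0.41, edgeR adjusted p = 0.806). Cd5 encodes a scavenger-type receptor that dampens antigen receptor signals, and it is carried by T cells and a subset of B cells. It was at 0.0636, 0.315 and 0.116 CPM in the nicotine libraries and at 0.369, 0.359 and 0.687 CPM in the control libraries. The lowest value rested on 3 counts. The 0.315 CPM of nicotine replicate 2 (interval 0.211 to 0.452) and the 0.359 CPM of control replicate 2 (interval 0.216 to 0.561) differed by less than their counting error. Cd5 was near the floor, and its nicotine libraries alone would not have carried it past the filter on low counts. Cd5 had a log2 fold change of -1.31 (SE 0.58, edgeR adjusted p = 0.806), and it ranged from -2.32 without nicotine replicate 2 to -0.94 without control replicate 3. Across the 6 libraries Cd2 and Cd5 had similar profiles, with a root mean square difference of 0.37 between their centered log2 CPM values.

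Lck encodes the kinase that starts T cell receptor signaling, and its level did not follow the other members. It was at 6.79, 8.46 and 6.79 CPM in nicotine replicates 1, 2 and 3, and at 7.61, 7.79 and 6.18 CPM in control replicates 1, 2 and 3. Control replicate 3, the highest library for the other 8 members, was the lowest for Lck. The highest library was 1.37 times the lowest, while this ratio was between 3.71 and 10.8 for the other members. Group means were 7.35 ± 0.962 CPM after nicotine and 7.19 ± 0.882 CPM in controls (SD, n = 3 each), a difference smaller than the spread between rats (log2 fold change 0.03, SE 0.21, edgeR adjusted p = 0.981). This fold change turned to -0.09 without nicotine replicate 2 and to -0.06 without control replicate 3. The level of Lck was 0.783 times the summed level of the other 5 T cell genes in control replicate 3, 1.68 and 2.78 times in control replicates 2 and 1, and 2.54 to 4.11 times in the nicotine libraries. The noncoding gene LOC120102985 overlaps Lck in the RefSeq annotation and held 14 to 47 counts per library, against 206 to 779 counts for Lck. The libraries were strand-specific, but the strand setting of the counting is not given in the sources used here.

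Lck is known to have a distal and a proximal promoter, the proximal one being used mainly in thymocytes, and the gene counts do not separate their transcripts. The RefSeq promoter table (build GRCr8) lists 2 starts for Lck and 1 for each of the 6 other members it holds. The 250 bases before each start were searched on both strands for CAGGAAGT, a form of the site bound by ETS factors, a family with members active in lymphocytes. The letters were chosen after the sequences had been read, so their count in these windows against all windows is no test of enrichment. They occur in 4 of the 8 windows of the members, and in 2.48% of the 33469 windows of the table. The 4 windows are shown 5′ to 3′ in the direction of the gene, with the match or its reverse complement in capitals. The matches start 30 and 78 bases before the Lck starts, 18 bases before the Cd3e start and 56 bases before the Cd79a start.
Lck first start, chr5:147201268-147201517, minus strand: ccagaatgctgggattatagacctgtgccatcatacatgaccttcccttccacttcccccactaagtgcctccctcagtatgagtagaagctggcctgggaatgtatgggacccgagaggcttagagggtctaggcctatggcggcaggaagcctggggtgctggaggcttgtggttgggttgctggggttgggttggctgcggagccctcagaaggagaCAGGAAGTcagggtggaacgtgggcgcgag
Lck second start, chr5:147183651-147183900, minus strand: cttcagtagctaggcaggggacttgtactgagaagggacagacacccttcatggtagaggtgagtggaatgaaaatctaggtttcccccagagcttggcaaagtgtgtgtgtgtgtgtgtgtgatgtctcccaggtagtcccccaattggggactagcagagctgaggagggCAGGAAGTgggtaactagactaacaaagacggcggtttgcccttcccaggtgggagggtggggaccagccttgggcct
Cd3e, chr8:54211771-54212020, minus strand: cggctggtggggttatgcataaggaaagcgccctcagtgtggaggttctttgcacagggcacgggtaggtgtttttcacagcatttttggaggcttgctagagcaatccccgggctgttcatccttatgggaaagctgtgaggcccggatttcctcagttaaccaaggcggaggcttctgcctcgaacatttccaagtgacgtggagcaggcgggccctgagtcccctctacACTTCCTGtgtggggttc
Cd79a, chr1:89621210-89621459, plus strand: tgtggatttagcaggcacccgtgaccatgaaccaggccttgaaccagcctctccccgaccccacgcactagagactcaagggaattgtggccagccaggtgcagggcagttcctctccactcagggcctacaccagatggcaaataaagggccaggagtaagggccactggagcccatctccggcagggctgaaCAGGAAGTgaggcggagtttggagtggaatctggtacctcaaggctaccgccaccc
Both Lck windows hold the letters, as do those of a further T cell gene and a B cell gene whose levels varied far more between libraries. The match is a description of the sequence and not evidence of binding. ATGCAAAT, the octamer of immunoglobulin promoters, was found in 0 of the 8 windows and in 1.56% of all windows. TATAAA was found in 0 of the 8 and in 12.9% of all windows, and the E-box CAGGTG was found in 4 of the 8 and in 15.9% of all windows.

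Cd79a and Cd79b encode the paired signaling chains of the B cell receptor. Cd79a was at 0.976, 0.564 and 0.694 CPM in nicotine replicates 1, 2 and 3, and at 1.11, 0.605 and 3.09 CPM in control replicates 1, 2 and 3. Control replicate 3 stood apart, and control replicate 2 lay among the nicotine libraries. The log2 fold change of Cd79a was -1.12 (SE 0.54, edgeR adjusted p = 0.810) and -0.16 without control replicate 3. Cd79b was at 1.12, 0.890 and 0.942 CPM in the nicotine libraries and at 1.62, 1.32 and 3.30 CPM in the control libraries. All control libraries were above all nicotine libraries, and the nicotine libraries were close together (0.985 ± 0.123 CPM, SD, n = 3). The intervals of nicotine replicate 1 (0.842 to 1.47) and control replicate 2 (1.03 to 1.67) overlapped. The log2 fold change of Cd79b was -1.09 (SE 0.38), and its adjusted p of 0.762 from edgeR was the lowest among the members. It was -0.57 without control replicate 3 and -1.36 without control replicate 2. The profiles of Cd79a and Cd79b were the most alike of all pairs of members, with a root mean square difference of 0.32 in centered log2 CPM over the 6 libraries.

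Cd79b lies next to the growth hormone gene Gh1 in the RefSeq annotation. In the human genome this arrangement is also found, and the control region that activates growth hormone in the pituitary reaches into CD79B, which is transcribed there. In these libraries Gh1 was at 52400, 116000 and 86600 CPM in nicotine replicates 1, 2 and 3, and at 72100, 69800 and 52700 CPM in control replicates 1, 2 and 3. Cd79b was lowest in nicotine replicate 2, where Gh1 was highest, and highest in control replicate 3, where Gh1 was near its lowest level. The part of Gh1 in the level of Cd79b was not tested.

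Ms4a1 encodes CD20, a surface protein of mature B cells. It was at 0.530, 0.119 and 0.578 CPM in the nicotine libraries and at 0.258, 0.378 and 1.19 CPM in the control libraries. The groups overlapped, with the lowest value in nicotine replicate 2 and the highest in control replicate 3. For Ms4a1 the fitted log2 change was -0.71 (SE 0.67, edgeR adjusted p = 0.854), and it turned to 0.17 without control replicate 3. The noncoding gene LOC120093141, which overlaps Ms4a1 in the RefSeq annotation, held 0 counts in every library.

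The T cell and B cell members did not order the libraries alike. The 5 T cell genes other than Lck, a sum chosen after the values were seen, totaled 1.70, 3.33 and 1.65 CPM in nicotine replicates 1, 2 and 3, and 2.73, 4.63 and 7.90 CPM in control replicates 1, 2 and 3. The 3 B cell genes totaled 2.63, 1.57 and 2.21 CPM in the nicotine libraries and 2.99, 2.31 and 7.58 CPM in the control libraries. Replicate 2 of both groups was rich in T cell relative to B cell transcripts, with T to B ratios of 2.12 and 2.01, while the other 4 libraries had ratios from 0.645 to 1.04. Control replicate 3 was the highest library for both sums. With Lck included, the 6 T cell genes totaled 9.57 ± 1.92 CPM after nicotine and 12.3 ± 1.87 CPM in controls (SD, n = 3 each).

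Markers of other blood and immune cells varied beside these sums. The 13 erythroid markers, among them 6 globin genes, totaled 5310, 3370 and 10700 CPM in nicotine replicates 1, 2 and 3, and 8900, 11900 and 17700 CPM in control replicates 1, 2 and 3. Control replicate 3 was again the highest library. The 5 T cell genes amounted to 0.320, 0.988 and 0.154 CPM per 1000 CPM of erythroid markers in the nicotine libraries and to 0.307, 0.389 and 0.446 in the control libraries, so this ratio was neither constant nor ordered by group. All 13 erythroid markers were tested, and all 13 had a log2 fold change below 0, with a median of -1.08. Of these, 10 were lower at an unadjusted p under 0.05 in edgeR, against 3.01% of all genes tested. This count was 5 without control replicate 3 (median -0.76, 2.53% of all genes). It was 6 without nicotine replicate 1 (4.86%) or nicotine replicate 2 (2.78%), and 13 without nicotine replicate 3 (median -1.61, 4.4%). The alpha globin gene Hba-a1 and the beta globin gene Hbb had log2 fold changes of -1.09 and -0.98. The 14 neutrophil markers totaled 38.4, 50.4 and 44 CPM after nicotine and 179, 24.2 and 129 CPM in controls. They were thus highest in control replicate 1. There the 5 T cell genes were lower than in the other control libraries but higher than in nicotine replicates 1 and 3. Of the 11 neutrophil markers tested, 10 were lower, with a median log2 fold change of -1.81, and the calprotectin gene S100a9 had -1.80. 7 were lower at an unadjusted p under 0.05, against 3.01% of all genes tested. Without control replicate 1 the median was -1.01 with 0 at this p (2.09% of all genes). Without control replicate 2 it was -2.41 with 10 of 12 (2.28%). The count was 4 without nicotine replicate 2 (2.78%), 2 without nicotine replicate 3 (4.4%) and 1 without control replicate 3 (2.53%). The 16 macrophage markers totaled 583, 430 and 757 CPM after nicotine and 871, 745 and 725 CPM in controls, with log2 fold changes from -0.96 to -0.07. Of the tested erythroid, neutrophil and macrophage markers, 0 were called by edgeR, while the calls of DESeq2 included the erythroid gene Slc4a1. That call was lost in DESeq2 without nicotine replicate 1, nicotine replicate 2, control replicate 1 or control replicate 3. The groups overlapped for Slc4a1, with 16.2 CPM in control replicate 2 and 17.2 CPM in nicotine replicate 3. The part of blood content or other immune cells in the member values was not tested.

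**Figure D3:**
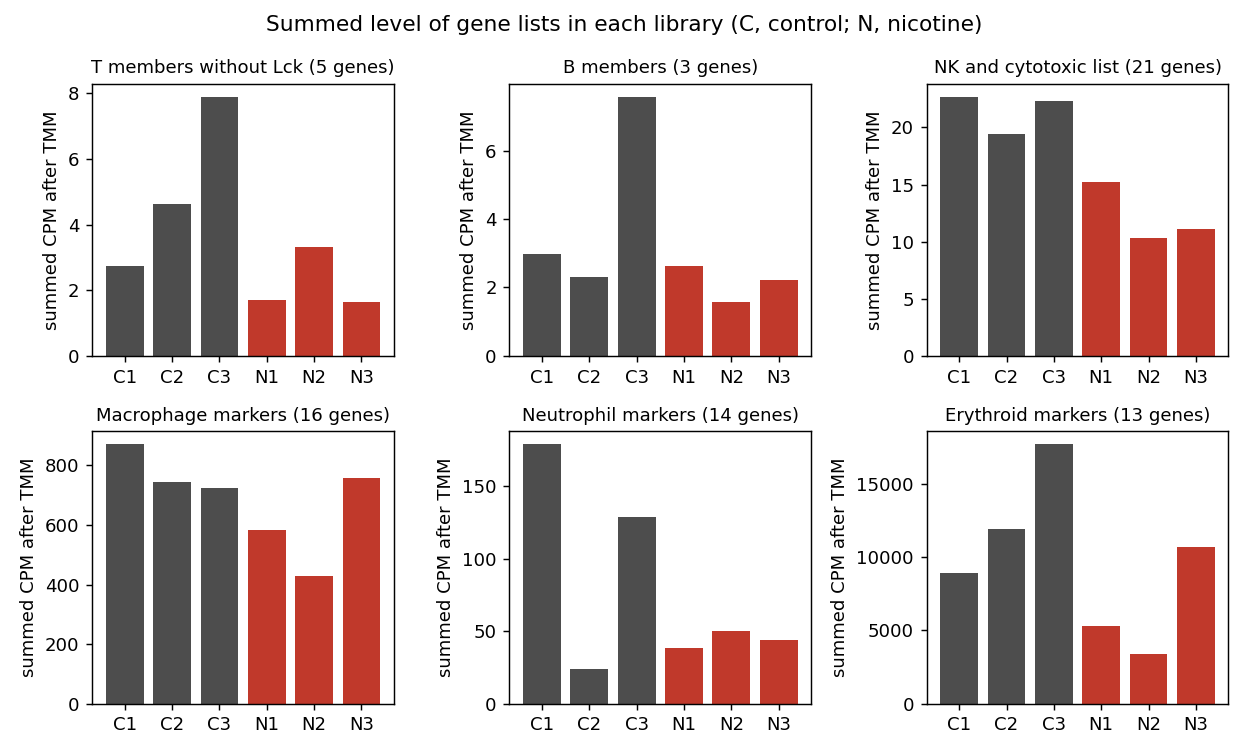
Summed CPM after TMM normalization of the genes of 6 lists in each library, with control libraries in gray and nicotine libraries in red. Control replicate 3 was highest for the T cell, B cell and erythroid genes, control replicate 1 for the neutrophil and macrophage markers, and all control libraries were above all nicotine libraries for the NK and cytotoxic list.

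Other genes of the same cells were read from lists of known markers. Of 23 T cell receptor chain and signaling genes, 20 were tested and 17 had a log2 fold change below 0, with a median of -0.61. 7 of the 20 had an unadjusted p under 0.05 in edgeR and 7 did not overlap between groups, all in the lower direction. Among all genes tested these shares were 3.01% and 5.14% in that direction. The genes with both such a p and no overlap were Grap2, Zap70, Ptprc, Ptprcap, Cd8a and Cd8b. Grap2, an adaptor that links LAT to SLP-76, was at 0.636, 0.727 and 1.02 CPM in the nicotine libraries and at 1.74, 2.18 and 2.14 CPM in the control libraries. Its log2 fold change was -1.35 (edgeR adjusted p = 0.702), and DESeq2 called it (adjusted p = 0.0610). The call was lost in DESeq2 without nicotine replicate 1, nicotine replicate 2, control replicate 2 or control replicate 3. Zap70, the kinase recruited to phosphorylated CD3 chains, had means of 0.324 ± 0.0969 and 0.696 ± 0.162 CPM (SD, n = 3 each) after nicotine and in controls. Cd8a and Cd8b, the coreceptor chains of cytotoxic T cells, had log2 fold changes of -0.83 and -1.78. Cd8b was at 0.127, 0.119 and 0.0991 CPM in the nicotine libraries and at 0.258, 0.284 and 0.66 CPM in the control libraries. It was near the floor and passed the filter on low counts only through the control libraries, so its difference lends no support to the other genes. The genes of this list with the highest CPM were Csk, Cd4, Fyn and Ptprc, with log2 fold changes of 0.02, -0.26, 0.15 and -0.62. Csk and Fyn are active in many tissues, and rat macrophages also carry CD4. Without control replicate 3, 17 of 20 genes of the list were still below 0 and the median was -0.38. In that fit 2 were lower at an unadjusted p under 0.05, against 2.53% of all genes.

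Of 26 genes for T cell surface proteins, costimulation and identity, 18 were tested and 13 were below 0, with a median of -0.31. The 3 with an unadjusted p under 0.05 were Cd7, Cd96 and Ikzf1, which did not overlap between groups. All 3 were lower, and 3.01% of all genes tested were lower at this p. Leaving out control replicate 3 gave a count of 1, which was 5.26% of the list against 2.53% of all genes. Leaving out nicotine replicate 2 or nicotine replicate 3 gave 5 (2.78% and 4.4% of all genes). The median was -0.51 without nicotine replicate 3. Cd7, a surface protein of T and NK cells, had means of 1.21 ± 0.367 CPM after nicotine and 2.64 ± 0.774 CPM in controls (SD, n = 3 each, edgeR adjusted p = 0.760). Its highest value was not in control replicate 3 but in control replicate 1, at 3.40 CPM. Foxp3, the regulator of regulatory T cells, had the highest log2 fold change of the list, at 1.28 (SE 0.71, edgeR adjusted p = 0.821). It was at 0.276, 0.206 and 0.413 CPM in the nicotine libraries and at 0, 0.113 and 0.211 CPM in the control libraries. The groups overlapped, and Foxp3 was named after its values were seen. It was near the floor and would not have passed the filter on low counts with the control libraries alone, so its difference lends no support. The most abundant gene by CPM, Satb1, a chromatin organizer of thymocytes that endocrine cells also express, had a log2 fold change of -0.12, and Cd6 had -0.15. Members of this list without enough counts to be tested included Ctla4, Cd27 and Cd40lg.

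NK and cytotoxic lymphocytes share granule proteins. Of 22 such genes, 21 were in the tables and 15 were tested, and all 15 had a log2 fold change below 0 (median -0.80). 7 of the 15 had an unadjusted p under 0.05 and 7 did not overlap between groups, all in the lower direction. Among all genes tested these shares were 3.01% and 5.14% in that direction. The summed level of the 21 genes was 15.2, 10.3 and 11.1 CPM in nicotine replicates 1, 2 and 3, and 22.7, 19.4 and 22.3 CPM in control replicates 1, 2 and 3. The groups did not overlap and the control libraries were close together. Without control replicate 3 the median was -0.82, with 15 of 16 genes below 0 and 7 lower at an unadjusted p under 0.05 (2.53% of all genes). Without control replicate 2 the count at this p was 4 of 16 (2.28% of all genes). The chemokine gene Ccl5 was at 1.68 ± 0.165 CPM after nicotine and 3.03 ± 0.128 CPM in controls (SD, n = 3 each), with a log2 fold change of -0.84. The granzyme genes Gzmc, Gzmk and Gzmm had log2 fold changes of -1.66, -0.96 and -0.56. Nkg7, a granule membrane gene, had -1.17, Cst7 had -1.33 and Klrd1, the CD94 receptor chain, had -1.26. The lowest adjusted p of the list was 0.760 in edgeR, and 0 of the 15 were called by edgeR or by DESeq2.

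Of 31 genes of B cell receptor signaling and B cell identity, 30 were in the tables and 23 were tested. 18 were below 0, with a median of -0.40, and 3 had an unadjusted p under 0.05 and did not overlap (Spib, Btk and Cd74). All 3 were lower, and among all genes tested 3.01% were lower at this p and 5.14% lower without overlap. The count at this p was 6 without nicotine replicate 3 (4.4% of all genes) and 5 without control replicate 2 (2.28%). It was 2 without nicotine replicate 2 (2.78%) or control replicate 3 (2.53%). Spib, an ETS factor of B cells and plasmacytoid dendritic cells, was at 0.276, 0.402 and 0.380 CPM in the nicotine libraries and at 1.96, 0.567 and 2.69 CPM in the control libraries. Control replicate 2 was close to the nicotine libraries. Spib had a log2 fold change of -2.21 (edgeR adjusted p = 0.735), and DESeq2 called it (adjusted p = 0.0123). The call was lost in DESeq2 without control replicate 1 or control replicate 3. Btk, the kinase downstream of the B cell receptor, had a log2 fold change of -0.87. Cd74, the invariant chain of antigen presentation, had means of 183 ± 6.95 and 237 ± 32.2 CPM (SD, n = 3 each) after nicotine and in controls, and macrophages also express it. Pik3ap1, Plcg2 and Lyn, which myeloid cells also use, had log2 fold changes of 0.10, 0.19 and -0.18. Pax5, a factor of B cell identity, was too low to be tested, with at most 0.264 CPM, in control replicate 3.

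Of 27 genes of lymphocyte trafficking, 21 were tested, 16 of them below 0 with a median of -0.51. The integrin genes Itgal and Itga4 had log2 fold changes of -0.62 and -0.68, and the chemokine receptor gene Cxcr6 had -0.86. These 3 genes had an unadjusted p under 0.05 in edgeR and did not overlap between groups. The genes with the highest CPM were Cxcl12, Coro1a, S1pr1 and Cxcr4, at 0.17, -0.51, 0.38 and 0.15. Cxcl12 is a chemokine of stromal cells, and S1pr1 is also expressed by endothelium. The lists were not tested as sets, and the adjusted p of all genes in them was 0.702 or above in edgeR.

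**Figure D4:**
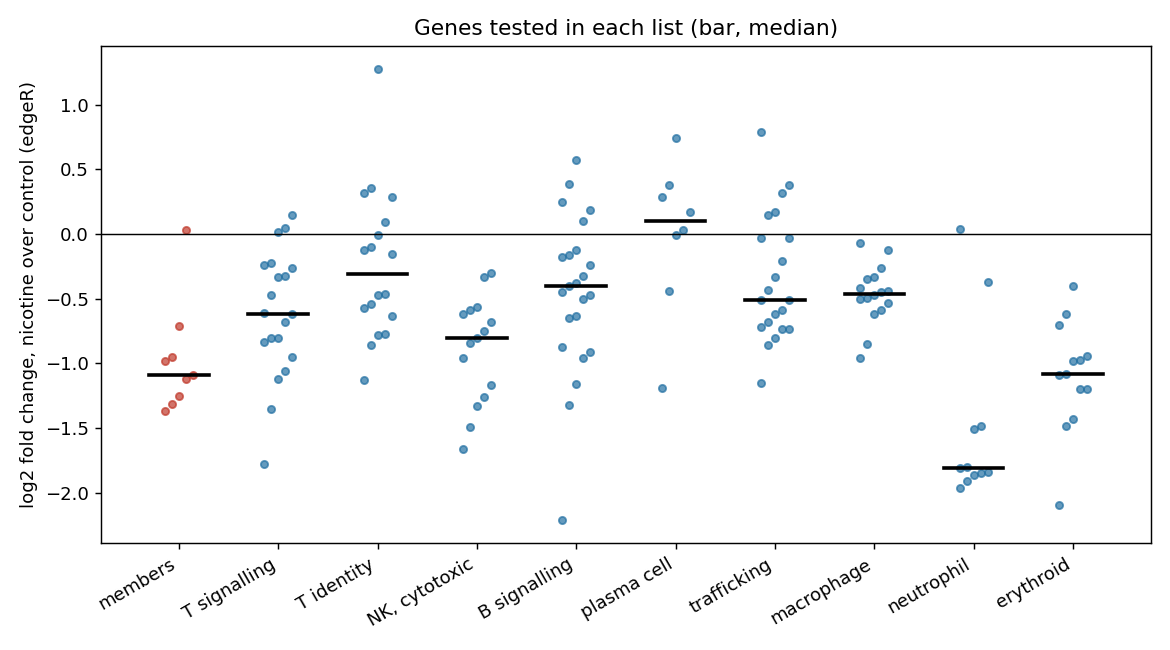
Log2 fold change, nicotine over control, of each tested gene of 10 lists (points), with the median of each list as a bar. The members (red) and the NK, cytotoxic, neutrophil and erythroid lists have medians from -1.81 (neutrophil) to -0.80. The plasma cell list has a median of 0.10. The neutrophil median was -1.01 without control replicate 1. Without control replicate 3 the median was -0.57 for the members and -0.76 for the erythroid list.

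To find genes that varied like the members, the mean centered log2 CPM of the 6 T cell genes was compared with that of other tested genes that varied at least as much. Over the 6 libraries and among 1104 genes, the smallest root mean square differences were 0.22 for Prrt4, 0.25 for the chemokine receptor gene Xcr1, 0.28 for the olfactory receptor gene Olr1645, 0.28 for Ctsw, the cathepsin W of cytotoxic lymphocytes, and 0.32 for Sidt1. For the 3 B cell genes, among 962 genes, they were 0.27 for RGD1565355, 0.34 for Angptl8, 0.37 for Pou2af1, a B cell coactivator of octamer factors, 0.38 for Trank1 and 0.41 for Slc22a6. All 10 genes were highest in control replicate 3 except Xcr1, which was at 0.832 CPM in control replicate 2 and 0.792 CPM in control replicate 3. The likeness is a description over 6 shared libraries.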

How the data were processed

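Per the methods of the study, the authors aligned paired-end reads of strand-specific pituitary libraries with HISAT2 (build rn7) and counted them per gene with FeatureCounts on the ncbiRefSeq annotation from UCSC. The extraction text in the labels names testis, while the tissue label is pituitary gland. The deposited counts are whole numbers per gene symbol, not normalized. Strand setting, multi-mapping and the counting of pairs are not given in the sources used here. Per the submitters' processing notes, HISAT2 was version 2.1.0. Depth was 28318383 to 85977002 counts per library.

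Groups were compared in R 4.3.3 with edgeR 4.0.16 (filterByExpr, TMM, quasi-likelihood test, no covariate) over 17292 genes, with Benjamini-Hochberg adjustment over all of them. DESeq2 1.42.0 and limma 3.58.1 served as alternatives. Log2 CPM used a prior count of 2. Procedures were tested on simulated data. The members and lists were chosen with earlier results of these data known. Named are all members, the 4 genes of each list with the highest CPM, genes called in either tool, genes without overlap at an unadjusted p under 0.05, and the 5 genes most like the T and the B members in centered log2 CPM. Other genes named were chosen after their values were seen. Promoter sequences and neighbors are from RefSeq (GRCr8), which held 7 of the 9 members with 8 windows. Transcript lengths were not used. A few list genes are not reported here.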

Additional observations from a re-analysis of the deposited data

How the results depend on the processing

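The fold changes of the 9 members were recomputed under 194 combinations of gene and alternative. 186 kept direction, 0 passed the threshold and 8 changed sign. The sign of Lck changed with limma voom (-0.07), with thinned counts (-0.02), without nicotine replicate 2 (-0.09, and -0.08 in DESeq2) and without control replicate 3 (-0.06, and -0.05 in DESeq2). That of Ms4a1 changed without control replicate 3 (0.17, and 0.33 in DESeq2). With 1 library left out, Lck ranged from -0.09 to 0.10 and Ms4a1 from -1.14 to 0.17. Requiring 10 counts in every library gave no value for Cd3d, Cd3e, Cd5 and Ms4a1. The number of members called was 0 under all alternatives, with 0 to 6 at an unadjusted p under 0.05. Among all genes, DESeq2 called 61, library sizes alone, voom and thinning 1 each, and no filter 2. With 1 library left out, edgeR called 0 to 9 genes and DESeq2, an alternative chosen after seeing the data, 89, 120 and 188 (without nicotine replicates 1, 2 and 3) and 88, 57 and 42 (without control replicates 1, 2 and 3). Of the list genes other than members, DESeq2 called 4, among them Spib, Grap2 and Slc4a1. With 1 library left out, edgeR called 0 to 4 of them and DESeq2, in the same order, 2, 2, 24, 1, 13 and 0. The replicate number as a block called 2 genes, 1 of them on a list (Car1). Same-numbered libraries correlated at 0.03, -0.20 and -0.08 in their deviations over all genes tested. Whether the numbers pair the samples for some genes cannot be told from these correlations. The log2 ratio of summed levels was -1 for the B cell genes (-1.30 to -0.31 with 1 library left out, the last without control replicate 3), -0.36 for the T cell genes (-0.55 to -0.25) and -1.19 for those without Lck (-1.62 to -0.72, the last without control replicate 3). The causes of these changes were not tested. Members held 3 to 779 counts per library, which limits single values.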

Other observations

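Genes of thymocytes and lymphocyte precursors had few counts. Of 9 listed, 8 were in the tables and 3 were tested, with log2 fold changes of -0.20 for Cd1d1, 0.13 for Ptcra and -1.20 for Rag1. Rag1, a chain of the recombinase that assembles antigen receptors, was at 0.740 CPM in control replicate 3 and 0.443 CPM in control replicate 1. In the other libraries it was at 0.0757 to 0.233 CPM. Dntt, which adds bases at receptor joints, was at 0.713 CPM in control replicate 3 against at most 0.0868 CPM in the other libraries. Rag2, named after its values were seen, was at 0.449 CPM in control replicate 3, 0.148 CPM in control replicate 1 and 0.0496 CPM in nicotine replicate 3. It was listed at 0 in 3 libraries. Of 14 plasma cell genes, 9 were in the tables and 8 were tested, with a median log2 fold change of 0.10. The most abundant by CPM, Xbp1, Txndc5, Sdc1 and Pim2, also belong to secretory and epithelial cells and had -0.01, 0.03, 0.38 and 0.17. Irf4, a factor of activated B cells and plasma cells, had a log2 fold change of -1.19 (adjusted p = 0.806 from edgeR). It was at 0.191, 0.282 and 0.182 CPM in the nicotine libraries and at 0.295, 0.378 and 0.872 CPM in the control libraries. It was thus lower without overlap, as were 5.14% of all genes tested. Irf4 was near the floor and would not have passed the filter on low counts with the nicotine libraries alone, so its difference lends no support. Of 13 platelet and mast cell markers, 4 were tested, with log2 fold changes of 0.46 for Pf4, 0.20 for Treml1, 0.39 for Itga2b and 1.26 for Cpa3. Cpa3 was at 0.255, 0.228 and 0.33 CPM in the nicotine libraries and at 0.148, 0.132 and 0.0528 CPM in the control libraries. It was near the floor and passed the filter on low counts only through the nicotine libraries. Among the 7 hormone genes, Lhb, the beta chain of luteinizing hormone, had the largest log2 fold change, 1.83 (adjusted p = 0.760 from edgeR), and the others lay between -0.70 and 0.49.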
